A study of Sus scrofa with 12 samples.

Results

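This report describes 5 genes of intercellular and membrane channels, GJA1, GJA4, GJA5, GJC1 and PANX1, in porcine arterial endothelial cells (ECs) exposed to different levels of wall shear stress (WSS). They were chosen by symbol, as the vascular connexins and pannexin 1, out of 21153 genes in the deposited count table, and each symbol corresponded to exactly 1 row. Primary ECs of 3 pigs, 8 months old according to the methods of the study, were grown on gelatin and exposed for 48 h to constant laminar flow at 2 dyne/cm2 (low aneurysmal WSS), 30 dyne/cm2 (physiological WSS) or 80 dyne/cm2 (supra-high aneurysmal WSS). Every donor gave 4 cultures, 1 at 2, 1 at 80 and 2 at 30 dyne/cm2, so that 12 libraries were sequenced. The cultures at 30 dyne/cm2 form set 1, with which the cells at 2 dyne/cm2 were compared, and set 2, with which those at 80 dyne/cm2 were compared. The replicate numbers 1 to 3 stand for the 3 donors.

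The source of the cells is the aorta in the labels and the coronary arteries in the methods. The labels, but not the methods, also give another type of flow slide and a higher seeding density for 80 dyne/cm2 and its controls. A slide effect on these cultures therefore cannot be told apart from a difference between set 1 and set 2. Comparisons of 2 dyne/cm2 with set 2, or of 80 dyne/cm2 with set 1, also cross these slide types and seeding densities. No treatment other than flow is named, and all groups share the medium with fetal calf serum and heparin.

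Connexins assemble into hexameric hemichannels that dock between neighbouring cells to form gap junctions, through which ions and small molecules such as calcium, IP3 and cyclic nucleotides pass. In arterial endothelium the main members are connexin 37 (GJA4) and connexin 40 (GJA5), whereas connexin 43 (GJA1) is characteristic of regions of disturbed flow and connexin 45 (GJC1) is better known from smooth muscle and the developing vessel wall. Pannexin 1 (PANX1) does not form classical gap junctions but releases ATP to the cell surface, where it is read by purinergic receptors.

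Libraries held 29606854 to 41058902 reads counted on genes (median 33871914). Of 10 endothelial markers 7 could be matched to a row, and all 7, among them PECAM1, CDH5 and ERG, had at least 1 CPM (reads of a gene per 1000000 reads counted) in every library. Their summed level was 4409 to 5611 CPM under low WSS, 6920 to 7725 and 6558 to 7402 CPM in sets 1 and 2, and 7930 to 8622 CPM under supra-high WSS. At 2 dyne/cm2 TEK alone of these markers was called, as lower (-2.95, adjusted p = 0.00479, edgeR). PECAM1 (-0.71, adjusted p = 0.0346) and ESAM (-0.56, adjusted p = 0.0179, edgeR) were lower by less than 2-fold. CDH5, TIE1 and ERG did not pass (adjusted p = 0.521, 0.255 and 0.134, edgeR). KDR was 2.41-fold lower but was not called (adjusted p = 0.0609, edgeR). The smooth muscle markers were low, with DES at 0 counts in all libraries, and ACTA2 and CNN1 below 1 CPM; 1 of 8, SMTN, kept at least 1 CPM throughout, and their sum ranged from 48.5 to 88.0 CPM. The sum of 6 fibroblast markers was 378 to 1181 CPM under low WSS, 164 to 229 and 127 to 510 CPM in sets 1 and 2, and 43.6 to 67.1 CPM under supra-high WSS, and most of it came from COL3A1, a fibrillar collagen gene. COL3A1 and PDGFRA were called higher at 2 dyne/cm2 (1.97 and 1.09, adjusted p = 0.00905 and 0.0300, edgeR), PDGFRA with at most 4.85 CPM. COL1A1 (1.44, adjusted p = 0.0590) and LUM (-0.11, adjusted p = 0.763, edgeR) were not called there. DCN and TCF21 were too low for the test. At 80 dyne/cm2 COL3A1 was called lower (-1.90, adjusted p = 0.0203, edgeR). Of 5 leukocyte markers PTPRC and CD3E had at most 2 and 1 counts in any library, CSF1R at most 38 and CD14 at most 166, whereas CD68, a lysosomal protein abundant in macrophages, had 4.80 to 21.1 CPM and was called lower at 2 dyne/cm2 (-1.17, adjusted p = 0.00961, edgeR). CD14 was not called there (0.11, adjusted p = 0.798, edgeR). Of all genes tested, 9.6% were called at 2 dyne/cm2 and 2.2% at 80 dyne/cm2. In bulk RNA, a change in the share of a cell type and a change of RNA per cell cannot be told apart. The part of these markers in the results below was not tested.

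All 5 genes were well covered. The lowest count was 208 reads, for PANX1, which corresponds to a counting error of 6.93%, and the highest was 84150 reads, for GJA1. At the lowest count of each of the other 4 genes the counting error was between 0.953% and 5.23%. For GJC1 at 2 dyne/cm2 the variation between donors (CV 5.11%) was no larger than this error. Exon lengths were not used here, so levels are compared within a gene and not between genes. None of the 5 genes overlaps another gene in the RefSeq annotation of Sscrofa11.1.

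GJC1 was about 3-fold lower at 2 dyne/cm2 than in set 1, and at 80 dyne/cm2 it was higher than in set 2 by less than 2-fold. GJA4 was about 5-fold higher at 2 dyne/cm2 than in set 1, but its mean level in set 2 was close to that at 2 dyne/cm2. GJA1 and GJA5 were not called in either comparison, and GJA5 differed far more between donors than between conditions. PANX1 did not pass the test in any of these comparisons either.

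A gene was called where it changed at least 2-fold and its adjusted p was under 0.05 in the quasi-likelihood test of edgeR, with the donor as a term in the model and Benjamini-Hochberg adjustment over all genes tested. At 2 vs. 30 dyne/cm2, 2 of the 5 genes were called, GJA4 as up-regulated and GJC1 as down-regulated, while 9.6% of the 11226 genes tested were called (5.06% up, 4.54% down). On the adjusted p alone the same 2 passed, with 25.8% of all genes. They also moved in the same direction in 3 of 3 donors, as did PANX1, at a background of 65.5%. In the comparison of 80 vs. 30 dyne/cm2, 0 of the 5 were called by edgeR and 0 by DESeq2, against a background of 2.2% of 11187 genes (1.14% up, 1.05% down). There, 4 of the 5 had an unadjusted p under 0.05, as did 26.1% of all genes, and 1, GJC1, had an adjusted p under 0.05, which 8.4% of all genes reached. None of the 5 had groups without overlap at 80 dyne/cm2, where 14.2% of genes did, and 4 of the 5 moved in the same direction in 3 of 3 donors, at a background of 47.1%. The number of 5 genes is too small to set these shares against the background.

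**Figure D1:**
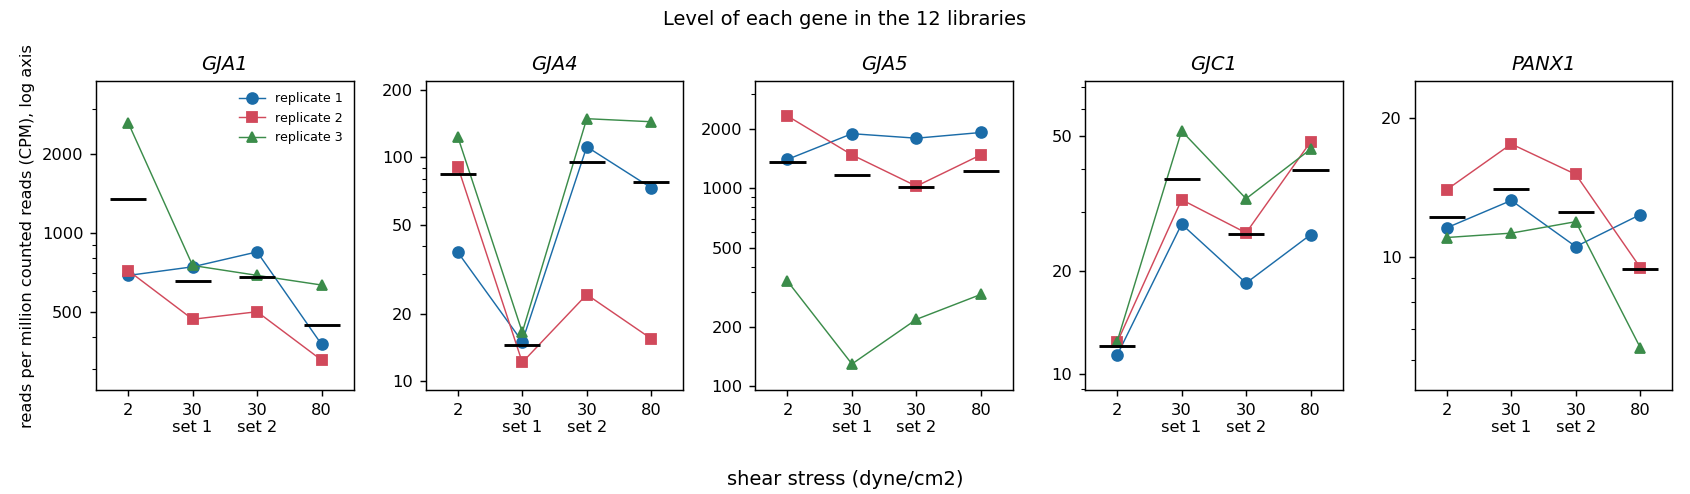
Level of GJA1, GJA4, GJA5, GJC1 and PANX1 in CPM on a log axis for 2 dyne/cm2, set 1, set 2 and 80 dyne/cm2. Points are libraries, thin lines join the 4 cultures of 1 donor, and black bars are means of 3 donors; GJC1 lies lowest at 2 dyne/cm2 in every donor, GJA4 lies lowest in set 1 in every donor, and replicate 3 has the lowest GJA5 in every group.

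GJC1 encodes connexin 45, a connexin that forms channels of low conductance. The gene (ENSSSCG00000021306) lies on chromosome 12, from 18526060 to 18560221. It had 11.3, 12.4 and 12.4 CPM in replicates 1, 2 and 3 at 2 dyne/cm2, and in set 1 it had 27.6, 32.5 and 51.9 CPM. All libraries at 2 dyne/cm2 lay below all libraries at 30 dyne/cm2, set 2 included, and the spread between donors at 2 dyne/cm2 (SD 0.615 CPM, n = 3) was small compared with that in set 1 (SD 12.8 CPM, n = 3). Within donors the level was 2.43-, 2.63- and 4.17-fold lower. The fitted log2 fold change was -1.56 (standard error, SE, of 0.17, adjusted p = 0.00721), and without the donor term it was -1.62 (adjusted p = 0.0182). The call was made in all 20 alternative fits of this comparison, with log2 fold changes between -1.71 and -1.03, the latter against set 2, where 7.71% of genes were called. Its adjusted p was at most 0.0270 in these fits. The fits are not independent. With the donor term, leaving out 1 library leaves its donor without a pair, which nearly repeats leaving out the donor. The log2 fold change ran from -1.71 to -1.34 with 1 library left out and from -1.71 to -1.35 with 1 donor left out.

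Under supra-high WSS GJC1 had 25.7, 48.2 and 45.8 CPM in replicates 1 to 3, against 18.5, 26.0 and 32.8 CPM in set 2. The ranges of these groups overlapped, but the level was higher in 3 of 3 donors, by 1.39-, 1.85- and 1.40-fold. The log2 fold change of 0.65 (SE 0.13) had an adjusted p of 0.0240 in edgeR and did not reach 2-fold. It was 0.68 without the donor term (adjusted p = 0.633). Leaving out replicate 2 or 3 of set 2 gave an adjusted p of 0.0763 and 0.139, and leaving them out at 80 dyne/cm2 gave 0.0719 and 0.139. Over all fits with 1 library left out, the log2 fold change ran from 0.47 to 0.77 and its adjusted p (edgeR) from 3.4e-08 to 0.139. Against set 1, in which GJC1 was higher than in set 2 in 3 of 3 donors, it was 0.10 (adjusted p = 0.852), in a comparison in which 0 of the 5 genes and 0.216% of all genes were called.

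To test whether the responses differed between low and supra-high WSS, the response at 2 dyne/cm2 minus that at 80 dyne/cm2 was tested over all 12 libraries. For GJC1 this difference was -2.22 on the log2 scale (SE 0.26, adjusted p = 3.2e-04, edgeR), and 3 of the 5 genes passed this test, against 37.1% of 11568 genes. When the groups at 2 and 80 dyne/cm2 were compared directly in the 12-library fit, a contrast that crosses the slide types given in the labels, GJC1 was lower at 2 dyne/cm2 by a log2 fold change of -1.67 (SE 0.19, adjusted p = 1.4e-04, edgeR; 43.6% of genes passed). The order of its mean levels was 12.04 ± 0.615 CPM at 2 dyne/cm2, 25.7 ± 7.14 CPM in set 2, 37.3 ± 12.8 CPM in set 1 and 39.9 ± 12.4 CPM at 80 dyne/cm2 (SD, n = 3). The first step passed in that fit (adjusted p = 0.00395, edgeR; 26.8% of genes passed). Neither set 2 and set 1 (adjusted p = 0.264; 0% of genes) nor set 1 and 80 dyne/cm2 (adjusted p = 0.790; 0.89% of genes) differed beyond their spread. Set 2 and 80 dyne/cm2, which are not neighbours in this order, had an adjusted p of 0.0812, with 3.28% of genes passing.

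GJA4 encodes connexin 37, which in arterial ECs has been tied to Notch signalling and to growth arrest under flow. The gene (ENSSSCG00000039983) lies on chromosome 6, from 91045430 to 91048161. It had 37.6, 90.8 and 124 CPM in replicates 1 to 3 at 2 dyne/cm2 and 14.98, 12.1 and 16.5 CPM in set 1. These groups did not overlap, which was also the case for GJC1 and for 36.5% of all genes tested. Within donors GJA4 was 2.51-, 7.51- and 7.49-fold higher at 2 dyne/cm2, and its log2 fold change was 2.41 (SE 0.37, adjusted p = 0.0147, edgeR). The call was lost when replicate 2 was left out at 2 dyne/cm2 or in set 1 (adjusted p = 0.0510 and 0.0519), where the log2 fold change was still 2.16 and 2.15.

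Set 2 gave a different picture, although it holds cultures of the same donors at the same WSS as set 1. There GJA4 had 112, 24.3 and 149 CPM in replicates 1 to 3, which was 7.45-, 2.01- and 9.02-fold more than in set 1 of the same donor. All 3 libraries of set 2 lay above all 3 libraries of set 1, as was the case for 10.1% of genes. The log2 fold change between the sets was 2.40 (SE 0.42), the size of the response at 2 dyne/cm2. Only 2 of 11163 genes differed as much between the sets in either direction, namely ADAMTS1 (-2.52) and FOSB (-2.41), which are named here after their values were seen. The adjusted p for GJA4 was 0.103 in edgeR, so that 0 of the 5 genes were called between the sets, where 0.00896% of all genes were; 2 of the 5, GJA4 and GJC1, had an unadjusted p under 0.05, as did 19.2% of all genes. DESeq2 (adjusted p = 0.00721) and the likelihood ratio test of edgeR (adjusted p = 4.7e-06) did call GJA4. For GJC1 the log2 fold change between set 2 and set 1 was -0.54 (SE 0.09, adjusted p = 0.103, edgeR), with a lower level in set 2 in 3 of 3 donors. GJA4 and GJC1 were the 2 of the 5 that moved in the same direction in all donors here, at a background of 43.8%.

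Against set 2, GJA4 at 2 dyne/cm2 was 2.97-fold lower in replicate 1, 3.73-fold higher in replicate 2 and 1.20-fold lower in replicate 3. The corresponding fit gave a log2 fold change of 0.015 (SE 0.68, adjusted p = 0.989, edgeR), and with both sets as control it was 0.90 (SE 0.88, adjusted p = 0.448). The call of GJA4 at 2 dyne/cm2 was thus made against set 1 and not against set 2, whereas that of GJC1 was made against either set. By the labels the comparison with set 2 also crosses slide types and seeding densities, whose part cannot be told apart.

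**Figure D2:**
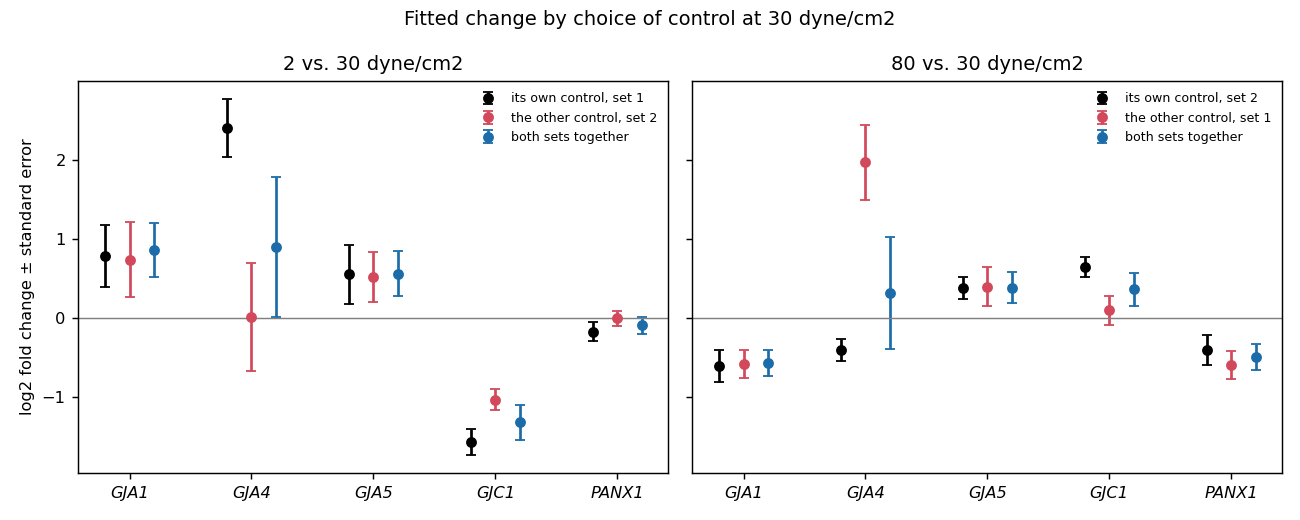
Fitted log2 fold change with its SE for the 5 genes at 2 and at 80 vs. 30 dyne/cm2, computed against the control set of the comparison (black), the other set (red) or both sets (blue). GJA4 at 2 dyne/cm2 moves from 2.41 against set 1 to 0.015 against set 2, while GJC1 stays at or below -1.03 with each control.

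In cells at 80 dyne/cm2 GJA4 had 73.0, 15.4 and 144 CPM in replicates 1 to 3. The groups overlapped widely, and within donors the level was 1.53-, 1.58- and 1.03-fold lower than in set 2. The log2 fold change of -0.40 (SE 0.14, adjusted p = 0.123, edgeR) did not pass, and against set 1 it was 1.97 (SE 0.47, adjusted p = 0.162). In the order of the mean levels, set 1 (14.5 ± 2.24 CPM) stood apart from 80 dyne/cm2 (77.6 ± 64.6 CPM), 2 dyne/cm2 (84.0 ± 43.4 CPM) and set 2 (94.9 ± 63.9 CPM; SD, n = 3). In the 12-library fit none of the neighbouring groups in this order differed beyond their spread (adjusted p = 0.136, 0.520 and 0.890, edgeR), whereas set 1 and 2 dyne/cm2 did (adjusted p = 0.0107; 39.6% of genes passed). The difference between the responses passed for GJA4 (2.94, SE 0.84, adjusted p = 0.0227) and was lost without the donor term (adjusted p = 0.119) and without replicate 1 (0.0531) or 3 (0.113). It contains the difference between the control sets; 2 and 80 dyne/cm2 compared directly, across the slide types, gave 0.52 (SE 0.61, adjusted p = 0.520).

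GJA5 encodes connexin 40, a connexin of arterial endothelium and of the conduction system of the heart. The gene (ENSSSCG00000006696) lies on chromosome 4, from 99854129 to 99871288. Its levels were 1397, 2313 and 339 CPM in replicates 1, 2 and 3 at 2 dyne/cm2 and 1883, 1472 and 129 CPM in set 1. In set 2 they were 1787, 1023 and 217 CPM, and at 80 dyne/cm2 they were 1910, 1473 and 291 CPM. The donor of replicate 3 had the lowest level in every condition. Over the 4 cultures of a donor the mean was 1744 CPM for replicate 1, 1570 CPM for replicate 2 and 244 CPM for replicate 3. The highest of the 4 libraries of replicate 3 lay below the lowest of the other 8.

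The change of GJA5 at 2 dyne/cm2 differed in direction between donors. The level was 1.35-fold lower in replicate 1, 1.57-fold higher in replicate 2 and 2.62-fold higher in replicate 3, with a log2 fold change of 0.55 (SE 0.37, adjusted p = 0.304, edgeR). Under supra-high WSS it was higher in 3 of 3 donors, by 1.07-, 1.44- and 1.34-fold, and the log2 fold change of 0.38 (SE 0.14) had an adjusted p of 0.146. With 1 library left out this change ran from 0.24 to 0.56, under 2-fold, and its adjusted p (edgeR) from 9.5e-04 to 0.506. The difference between the responses was 0.20 (SE 0.43, adjusted p = 0.745). None of the pairs of groups differed in GJA5 beyond the spread, the smallest adjusted p in the 12-library fit being 0.185.

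In a decomposition of the variance of log2 CPM over the 12 libraries, the donor accounted for 91.2% and the shear group for 2.91% in GJA5. For GJC1 these shares were 14.7% and 79.0%, and for GJA4 they were 26.6% and 50.5%. GJA1 and PANX1 lay between, with donor shares of 33.0% and 29.1% and shear group shares of 41.2% and 44.9%. The sets at 30 dyne/cm2 entered this decomposition as separate groups, so the share of GJA4 includes the difference between them.

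**Figure D3:**
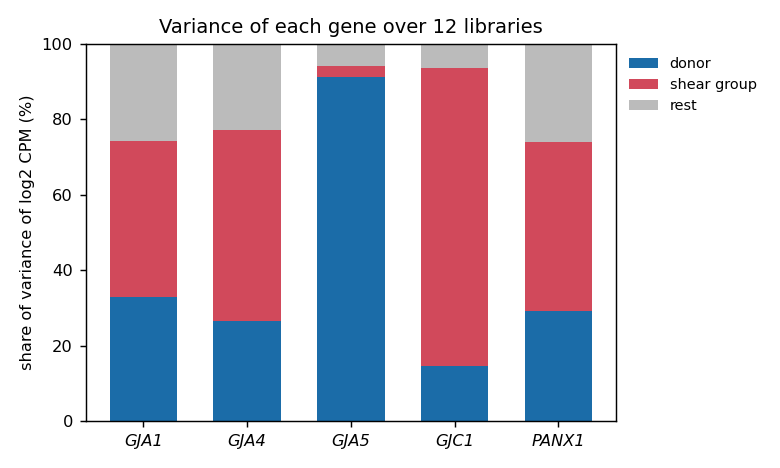
Share of the variance of log2 CPM over 12 libraries in percent that goes with the donor, with the shear group (4 groups, with sets 1 and 2 at 30 dyne/cm2 apart) and with neither. The donor takes 91.2% in GJA5 and the shear group 79.0% in GJC1.

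GJA1 encodes connexin 43, the most widely expressed connexin, which in vessels is found in smooth muscle and in ECs of disturbed flow. The gene (ENSSSCG00000004241) lies on chromosome 1, from 40988818 to 41002129. It had 687, 718 and 2649 CPM in replicates 1 to 3 at 2 dyne/cm2, against 742, 467 and 751 CPM in set 1. The library of replicate 3 stood apart from the other two, and the groups overlapped. Within donors the level was 1.08-fold lower in replicate 1 and 1.54- and 3.53-fold higher in replicates 2 and 3. The log2 fold change was 0.79 (SE 0.40, adjusted p = 0.193, edgeR), and it fell to 0.24 to 0.25 when replicate 3 was left out in either group or in both. In replicate 3 at 2 dyne/cm2 the fibroblast markers summed to 839 CPM, compared with 1181 CPM in replicate 1 and 378 CPM in replicate 2. Its endothelial markers summed to 4409 CPM, the lowest of the 12 libraries.

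Under supra-high WSS GJA1 had 374, 326 and 632 CPM in replicates 1 to 3, and in set 2 it had 846, 499 and 688 CPM. It was lower in 3 of 3 donors, by 2.26-, 1.53- and 1.09-fold, with overlapping groups, and the log2 fold change of -0.60 (SE 0.21) had an adjusted p of 0.118 (edgeR). Without replicate 1 at 80 dyne/cm2 or in set 2 it was only -0.29 and -0.28. The sets at 30 dyne/cm2 were close, with a log2 fold change of 0.04 (SE 0.09, adjusted p = 0.858). The order of the means was 444 ± 164 CPM at 80 dyne/cm2, 653 ± 161 and 678 ± 174 CPM in sets 1 and 2, and 1351 ± 1124 CPM at 2 dyne/cm2 (SD, n = 3), and no neighbours in this order differed beyond their spread. The extremes did, in a contrast that crosses the slide types and seeding densities given in the labels and that 43.6% of genes passed. The level at 2 dyne/cm2 was above that at 80 dyne/cm2 by a log2 fold change of 1.48 (SE 0.37, adjusted p = 0.00973, edgeR). The difference between the responses was 1.55 (SE 0.51, adjusted p = 0.0398), which was lost without the donor term (adjusted p = 0.162) and without any 1 donor (adjusted p = 0.0537 to 0.128).

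PANX1 (ENSSSCG00000032360) lies on chromosome 9, from 26443425 to 26491010. Its levels varied least of the 5 genes, with a ratio of 2.75 between the highest and the lowest library, against 4.58 for GJC1, 8.13 for GJA1, 12.3 for GJA4 and 17.9 for GJA5. It had 11.6, 13.98 and 11.02 CPM in replicates 1 to 3 at 2 dyne/cm2 and 13.2, 17.5 and 11.3 CPM in set 1. The log2 fold change of -0.17 (SE 0.12, adjusted p = 0.334, edgeR) was close to 0, and against set 2 it was 0.0010. Cells at 80 dyne/cm2 had 12.3, 9.49 and 6.38 CPM, against 10.5, 15.1 and 11.9 CPM in set 2. This was 1.17-fold higher in replicate 1 and 1.59- and 1.87-fold lower in replicates 2 and 3. The fit gave -0.41 (SE 0.19, adjusted p = 0.223, edgeR). Without replicate 1 at 80 dyne/cm2 or in set 2 it gave -0.70 (adjusted p = 2.7e-04 and 2.6e-04, edgeR), still short of 2-fold. With the donor term both fits amount to the same exclusion. They rest on the pairs of replicates 2 and 3, without the donor in which the level was higher. The difference between the responses was 0.23 (SE 0.25, adjusted p = 0.488).

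**Figure D4:**
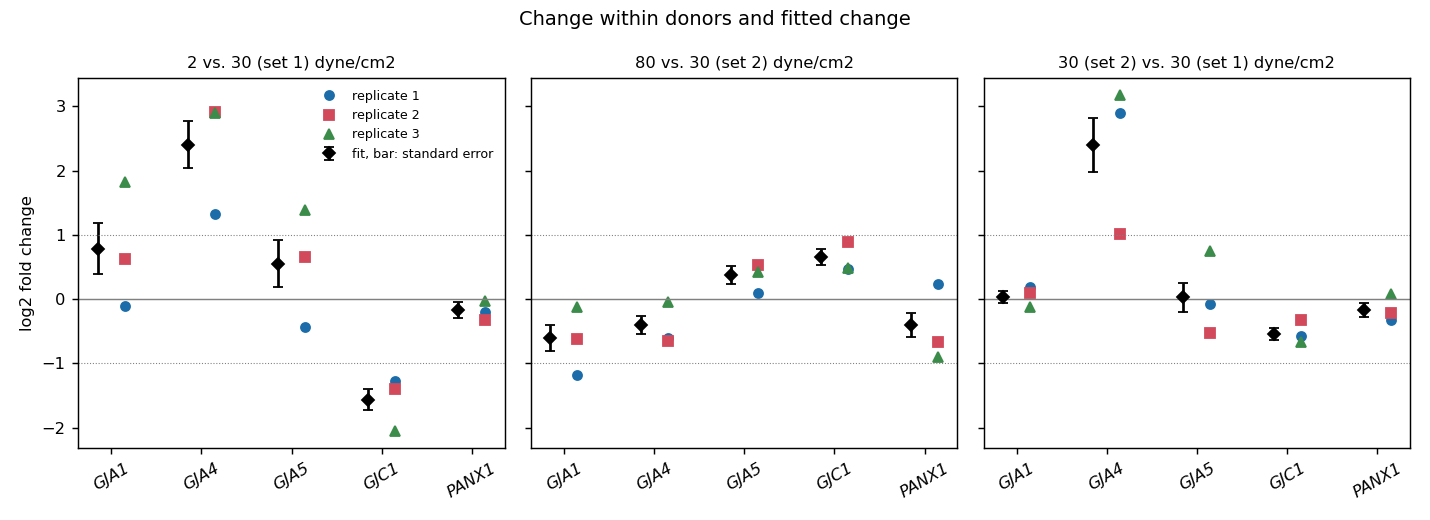
Log2 fold change of the 5 genes at 2 vs. 30 dyne/cm2 (set 1), at 80 vs. 30 dyne/cm2 (set 2) and between the sets at 30 dyne/cm2. Coloured points are the ratios within each of 3 donors, black diamonds the fitted values with their standard error, and dotted lines mark a 2-fold change; GJA4 differs by 2.40 between the control sets, about as much as by 2.41 at 2 dyne/cm2.

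The balance between connexins was followed as the ratio of their reads, whose changes between libraries do not depend on gene length. Reads of GJA5 per read of GJA1 numbered 2.54, 3.15 and 0.172 in replicates 1 to 3 of set 1 and 2.03, 3.22 and 0.128 at 2 dyne/cm2. In set 2 they numbered 2.11, 2.05 and 0.316, and at 80 dyne/cm2 they numbered 5.10, 4.52 and 0.460. The ratio was higher at 80 dyne/cm2 than in set 2 in 3 of 3 donors, and at 2 dyne/cm2 it was lower than in set 1 in 2 of 3 donors. The donor of replicate 3 had several times fewer GJA5 reads per GJA1 read in all conditions. No test was made on these ratios.

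After removal of each donor's mean, the levels of GJC1 and GJA1 ran in opposite directions over the 12 libraries (Pearson's r = -0.763), and those of GJA4 and GJA5 ran together (r = 0.622). The other 8 pairs had r between -0.558 and 0.435. These values describe 12 libraries of 3 donors, which share donors and shear groups. By the same measure, the genes most like GJC1 among 9676 candidates were CAMK1 (r = 0.994), NSFL1C (r = 0.993) and PLAUR (r = 0.990), and the lowest of their values without 1 donor was 0.989. PLAUR, the urokinase receptor, had log2 fold changes of -2.81 (SE 0.39, adjusted p = 0.0119) and 1.15 (SE 0.12, adjusted p = 0.00439, edgeR) at 2 and 80 dyne/cm2. CAMK1 (-0.67 and 0.34) and NSFL1C (-0.57 and 0.27) were not called in either comparison. As these genes were picked by their likeness to GJC1 in the same libraries, their shared directions follow from the choice. The most similar genes were WDR91 (r = 0.926), ST8SIA5 and SERINC2 for GJA4, TMEM59L (r = 0.958), MGAT1 and SLIT3 for GJA1, AGPAT3 (r = 0.863), TM9SF4 and ZNF235 for GJA5, and QTRT2 (r = 0.902), ZGRF1 and IL6 for PANX1.

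Among the other connexins and pannexins, PANX2 and GJA9 are described here, and neither was called by edgeR in either comparison. PANX2, a pannexin of mostly intracellular membranes, was higher at 80 dyne/cm2 in 3 of 3 donors (28.7 ± 6.76 against 21.4 ± 6.59 CPM; SD, n = 3) with a log2 fold change of 0.47 (SE 0.09, adjusted p = 0.0230, edgeR). Under low WSS its change was -0.28 (SE 0.16, adjusted p = 0.246). GJA9 had log2 fold changes of 0.10 and -0.30 (adjusted p = 0.583 and 0.204, edgeR), and it lies 662 bases from MYCBP, whose reads were not analysed here.

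Of the protein-coding genes within 100000 bases of GJA5, ACP6 and BCL9 were measured, and their log2 fold changes were 0.06 and 0.62 at 2 dyne/cm2 (adjusted p = 0.703 and 0.0334, edgeR) and 0.23 and -0.0022 at 80 dyne/cm2 (adjusted p = 0.160 and 0.991). Within the same distance of GJC1, 5 genes were tested, and their log2 fold changes at 2 dyne/cm2 were -0.67 for KIF18B (adjusted p = 0.125), -0.14 for DBF4B (0.692), -0.12 for CCDC43 (0.364), -0.10 for EFTUD2 (0.386) and 0.50 for ADAM11 (0.0636, edgeR). None of these 5 passed the test by edgeR at 2 dyne/cm2. There 1 of them, ADAM11, had an unadjusted p under 0.05, as did 42.5% of all genes tested. ADAM11 passed the test of the difference between the responses (1.18, SE 0.30, adjusted p = 0.0124, edgeR), as did 37.1% of all genes.

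Further genes of the connexin and pannexin pathways were counted from lists written from general knowledge, with earlier results of these data known. The counts of these lists are set beside the background as a description and do not test for an excess. The changes of the list members at 2 dyne/cm2 are described here by count and median. The list of connexin partners and regulators holds scaffold proteins, kinases and ubiquitin ligases that bind or modify connexins. Of its 22 tested members 0 rose and 2 fell past both thresholds at 2 dyne/cm2, at a background of 5.06% and 4.54% of all genes, with a median log2 fold change of -0.09, against 0.00 over all genes. CCN3 (NOV), a matricellular protein that binds connexin 43, fell from 253 ± 15.7 to 90.1 ± 20.6 CPM (SD, n = 3), a log2 fold change of -1.50 (SE 0.12, adjusted p = 0.00457, edgeR). SMURF2, a ubiquitin ligase involved in connexin 43 turnover, fell from 339 ± 23.5 to 141 ± 27.9 CPM (-1.27, SE 0.15, adjusted p = 0.00849), and against set 2 its change of -0.92 was under 2-fold. In the comparison at 80 dyne/cm2 none of the 22 was called by edgeR (2.2% of all genes were), and none had an adjusted p under 0.05 (8.4% of all genes had).

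A list of transcription regulators of vascular connexins also holds genes of other function, among them CDKN1B. Of its 16 tested members, 1, CDKN1B, rose and 4 fell at 2 dyne/cm2. The background was the same, 5.06% up and 4.54% down, and the median log2 fold change was -0.41. The flow-induced factor KLF2 fell from 143 ± 28.7 to 7.80 ± 4.88 CPM (-4.35, SE 0.53, adjusted p = 0.00906, edgeR), and KLF4 fell by 2.62 on the log2 scale. The Notch ligand DLL4 fell by 1.55 (SE 0.19, adjusted p = 0.00905), but against set 2 its change was -0.60 (SE 0.34, adjusted p = 0.251), and the call was not made without the donor term (adjusted p = 0.364). FOS, an immediate early gene, fell from 3.45 ± 2.28 to 0.789 ± 0.248 CPM (-1.98, SE 0.33, adjusted p = 0.0172, edgeR). The call of FOS was lost without the donor term, with both sets as control and without replicate 2 at 2 dyne/cm2. FOS was too low for a test against set 2, where it had 0.854 ± 0.504 CPM. CDKN1B, which encodes the cell cycle inhibitor p27 and has been placed downstream of connexin 37, rose from 20.8 ± 2.76 to 55.5 ± 14.3 CPM (1.41, SE 0.19, adjusted p = 0.0112). CDKN1B was also higher in set 2 (31.2 ± 6.88 CPM) than in set 1, without overlap of the sets, which held for 10.1% of genes. A link to GJA4 was not tested. Against set 2 the change of CDKN1B of 0.86 (adjusted p = 0.00661, edgeR) was under 2-fold. Under supra-high WSS none of the 16 was called by edgeR, against 2.2% of all genes, and 3 had an adjusted p under 0.05, against 8.4%. KLF2 and CDKN1B had log2 fold changes of 0.44 and -0.46 there (adjusted p = 0.0428 and 0.0311).

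A further list holds genes that release, detect and degrade extracellular ATP. Of its 11 tested members 2 rose and 5 fell at 2 dyne/cm2, where 5.06% of all genes rose and 4.54% fell, with a median log2 fold change of -0.97. Among the receptors, the channel P2RX5 fell from 64.3 ± 25.0 to 15.8 ± 2.16 CPM (-1.94, SE 0.28, adjusted p = 0.0124) and P2RY2, a receptor for ATP and UTP, fell from 45.8 ± 15.2 to 13.8 ± 3.37 CPM (-1.69, SE 0.32, adjusted p = 0.0235, edgeR). The call of P2RY2 was lost without replicate 3 of set 1 (adjusted p = 0.0511). The adenosine receptor ADORA2A rose from 7.20 ± 4.51 to 25.8 ± 13.5 CPM (1.97, SE 0.33, adjusted p = 0.0178), but it was not called without the donor term (adjusted p = 0.105). Among the enzymes, ENTPD1 (CD39), which degrades ATP and ADP at the surface of ECs, fell from 7.50 ± 3.02 to 0.794 ± 0.597 CPM (-3.30, SE 0.60, adjusted p = 0.0207), whereas the related ENTPD3 rose from 154 ± 31.6 to 434 ± 15.6 CPM (1.53, SE 0.17, adjusted p = 0.00758). NT5E (CD73), which produces adenosine from AMP, fell by 1.36 (adjusted p = 0.0395), with a mean of 0.973 CPM at 2 dyne/cm2, and the call was not made without the donor term (adjusted p = 0.0693) or without replicate 2 or 3 at 2 dyne/cm2. CALHM2, a channel of the calcium homeostasis modulator family, fell by 1.73 (adjusted p = 0.00526), and without the donor term its adjusted p was 0.0927. Against set 2 the changes of P2RX5, P2RY2, ENTPD1, ENTPD3, ADORA2A and CALHM2 were called in the same direction, and that of NT5E was not (-0.72, adjusted p = 0.0844).

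Under supra-high WSS, 1 of the 11 genes was called, NT5E, which rose from 1.68 ± 0.466 to 3.59 ± 1.46 CPM (1.08, SE 0.22, adjusted p = 0.0293, edgeR), and 5 had an adjusted p under 0.05, where 2.2% and 8.4% of all genes did. The call of NT5E was not made without the donor term (adjusted p = 0.576), nor against set 1 (0.41, adjusted p = 0.535). It was lost as well when replicate 2 or 3 was left out, with an adjusted p of 0.132 and 0.196 for 80 dyne/cm2 and of 0.127 and 0.191 for set 2. ENTPD1, P2RX5 and P2RY2 were higher in 3 of 3 donors, with log2 fold changes of 0.90, 0.99 and 0.72 (adjusted p = 0.00666, 0.0130 and 0.00693). ADORA2A was lower in 3 of 3 donors (-0.90, adjusted p = 0.0222). Compared with set 2, these 4 genes thus moved at 80 dyne/cm2 in the direction opposite to that at 2 dyne/cm2, by less than 2-fold. Against set 1 the log2 fold changes of ENTPD1, P2RX5, P2RY2 and ADORA2A were 1.15, 0.57, 0.51 and -0.81. None of them passed there (adjusted p = 0.0585, 0.282, 0.243 and 0.162, edgeR), where 0.216% of all genes were called. The difference between the responses passed for 8 of the 11 genes, against 37.1% of all genes, among them ENTPD1 (-4.12, SE 0.53, adjusted p = 4.9e-04), ADORA2A (2.88, SE 0.38, adjusted p = 5.4e-04) and P2RX5 (-2.94, SE 0.33, adjusted p = 2.5e-04, edgeR).

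**Figure D5:**
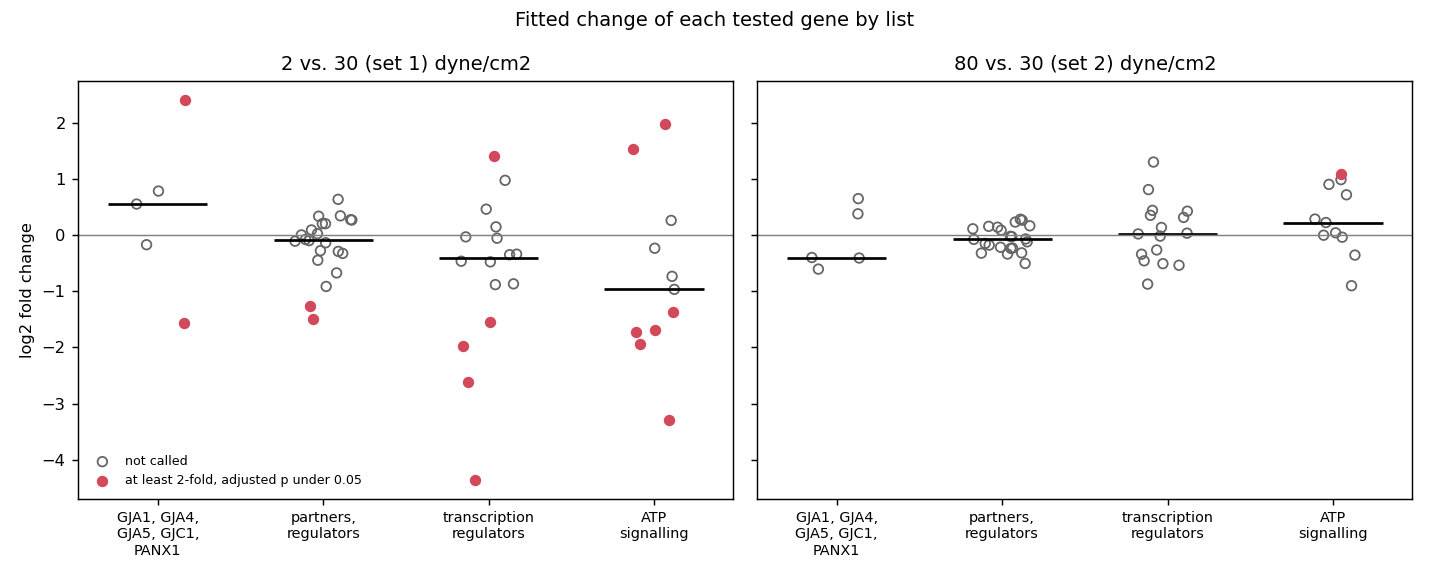
Fitted log2 fold change of each tested gene at 2 vs. 30 dyne/cm2 (set 1) and at 80 vs. 30 dyne/cm2 (set 2), for the 5 genes and 3 lists. The lists were written with earlier results of these data known. Filled red points passed both thresholds, open points did not, and black lines are medians; the ATP signalling list has 7 filled points of 11 at 2 dyne/cm2 and 1 of 11 at 80 dyne/cm2.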

How the data were processed

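RNA of 12 cultures was sequenced as single-end reads of 100 nt. The authors aligned them to Sscrofa11.1 with STAR (version 2.4 in the submitters' processing notes), kept only uniquely aligned reads, and assigned these to genes (exons merged) with featureCounts 1.4.6. The deposited values are raw counts, not normalized; strand use in counting is not given in the sources used here. Symbols were given to 14572 genes (68.9%).

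The deposited counts were fitted with edgeR 4.0.16 under R 4.3.3 (TMM, quasi-likelihood test with a donor term, Benjamini-Hochberg adjustment). Genes were kept where 3 or more of the compared libraries reached 1 CPM. Library sizes are total counts, and CPM are without TMM. TMM factors ran from 0.939 to 1.05. The standard error is the log2 fold change divided by the square root of F. The donor term was used because the methods compare cultures of the same donor and passage, as the source names in the labels also show. The pairing was checked on the counts, with correlations of 0.672 to 0.876 for 18 pairs of libraries with the same number and of -0.552 to -0.190 for 36 other pairs (replicate block). Set 1 and set 2 were assigned to the conditions by the rule for this group of genes, since the labels do not spell this out. Genes most like a member were ranked by Pearson's r of log2 CPM (prior count 2) with donor means removed, among genes with a symbol and a mean of at least 50 counts. Listed genes were named where they passed both thresholds, and other connexins and pannexins where they were tested, some of which are not reported here. The genes and lists were chosen with earlier results of these data known. Alternatives were RLE normalization, DESeq2 1.42.0, the likelihood ratio test, 2 other filters, no donor term, dispersion from 12 libraries, other controls, the adjusted p alone, and each library or donor left out. DESeq2 without the donor term was added after seeing the data. The fits were tested on simulated data. Without exon lengths, the study's filter at 1 RPKM was not used.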

Additional observations from a re-analysis of the deposited data

Results flagged for a closer look

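In 3 of the 5 genes the responses to low and supra-high WSS differed by the test of the difference itself over 12 libraries (edgeR quasi-likelihood test, adjusted p under 0.05), where 37.1% of all genes tested did. The difference on the log2 scale was -2.22 for GJC1, 1.55 for GJA1 and 2.94 for GJA4. Of these, GJC1 kept its call in all 10 alternative fits, GJA1 in 5 and GJA4 in 7. Compared directly, a contrast that also crosses the slide types given in the labels, 2 and 80 dyne/cm2 differed in GJC1 and GJA1, and the test was not passed for GJA4.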

How the results depend on the processing

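For the 5 genes, 270 of 300 alternative values kept both their direction and their side of the thresholds. These values are not independent. With the donor term, leaving out 1 library or the donor it came from gives nearly the same fit. Against the other control set, GJA4 was 0.015 and PANX1 0.0010 under low WSS and GJA4 was 1.97 under supra-high WSS, and with both sets GJA4 was 0.90 and 0.32. GJA9 was -0.023 under low and CDKN1B 0.090 under supra-high WSS with the other set. On the adjusted p alone GJC1 (0.65) was called at 80 dyne/cm2. With 1 library or donor left out, GJA4 at 2 dyne/cm2 ran from 2.10 to 2.93 and lost its call in each fit without replicate 2. Without the donor term (no replicate block) GJA5 was -0.077 for the difference between the responses and -0.20 between the sets; with DESeq2 and no replicate block, chosen after seeing the data, it was -0.083 and -0.21. No replicate block changed no call of the 5 genes at 2 or 80 dyne/cm2, and it ended those of GJA1 and GJA4 for the difference (1.69 and 2.84). With 1 donor left out, GJA5 ran from -0.13 to 0.45 for the difference and from -0.30 to 0.31 between the sets. GJA1 ran from -0.044 to 0.14 between the sets, and PANX1 from -0.083 to 0.54 for the difference. The cause was not tested.

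The number of genes called at 2 dyne/cm2 was 1078, against 635 with no replicate block and 2895 on the adjusted p alone, and 721 to 1078 with 1 library or donor left out. At 80 dyne/cm2 it was 246, against 0 with no replicate block, 66 in DESeq2 without it, 940 on the adjusted p alone, 136 with dispersion from all 12 libraries, 24 against the other set, 84 against both sets and 132 to 315 with 1 library or donor left out. For the difference between the responses it was 4294, against 1746 with no replicate block, 2560 in DESeq2 without it and 1949 to 3299 with 1 donor left out. Between the sets 1 gene was called, against 66 by DESeq2, 90 by the likelihood ratio test, 46 with no filter, 0 with no replicate block, 8 in DESeq2 without it and 0 to 62 with 1 donor left out; 2146 genes had an unadjusted p under 0.05. With 3 donors, p-values measure the spread between 3 pairs of cultures.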
